A study of Mus musculus with 9 samples.

Results

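The Polo-like kinases are a family of 5 genes in the mouse, Plk1 to Plk5, and all 5 had a row among the 24505 genes of the count table. Plk1 to Plk4 were taken by name as the rest of the family. Plk5 was selected on its counts in these same libraries, which are far lower in preleptotene spermatocytes than in In/B spermatogonia, so every value of Plk5 is a description and carries no test here.

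The study asked whether germ cells of the mouse testis need retinoic acid (RA) to enter meiosis, and measured mRNA in 9 libraries of 3 sorted germ cell populations, with 3 libraries in each. All animals were Uchl1-eGfp transgenic mice on a mixed C57BL/6 and CD-1 background, in which the Uchl1 promoter drives a green fluorescent protein. All groups, the In/B group included, received WIN 18,446, an inhibitor of RA synthesis, at 100 µg per g of body weight from postnatal day (P) 1, and then 10 µl of RA at 10 µg/µl in DMSO on P11, which starts spermatogonia on a synchronous course. Intermediate and type B (In/B) spermatogonia, the last mitotic germ cells, were sorted as EGFP-bright cells at P17. Preleptotene (PL) spermatocytes, which replicate their DNA before meiotic prophase, were sorted as EGFP-dim cells at P19. RA-sufficient PL cells came from mice that received nothing after the RA, and RA-deficient PL cells came from mice returned to daily WIN 18,446 after it, so that the later rise of RA was blocked. Testes of at least 5 pups of a litter were pooled for a cell suspension, so a library is a pool of animals, and age differs together with cell type between In/B and both PL groups.

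The libraries held between 12612959 and 27042274 counts, and a gene with 3 counts stood at 0.111 to 0.221 CPM (counts scaled to a common library size). RA-deficient replicate 3 stood apart: its log2 CPM correlated at r = 0.891 and 0.890 with RA-deficient replicates 1 and 2, against 0.947 between those replicates and at least 0.959 within the other groups, described over all genes that passed the filter. The labelled cell types were checked against fixed marker lists. The 9 early meiosis markers summed to between 2763 and 4133 CPM in the 6 PL libraries and to between 591 and 1104 CPM in In/B. Germ cell markers were abundant in all 9 libraries, but not evenly so. They summed to 3058 to 4282 CPM in RA-sufficient PL, 4587 to 5442 CPM in In/B and 6011 to 6959 CPM in RA-deficient PL, without overlap. The 6 markers of differentiating spermatogonia went against the PL label in part: they summed to 1406 and 1373 CPM in RA-deficient replicates 1 and 2, within the In/B range of 1297 to 1700 CPM, but to 328 CPM in RA-deficient replicate 3 and to between 227 and 334 CPM in RA-sufficient PL. Uchl1, whose promoter drives the EGFP used for sorting, was at 1753, 1909 and 1010 CPM in RA-deficient replicates 1 to 3. It was at 425, 610 and 520 CPM in RA-sufficient PL and at 3651, 2390 and 2336 CPM in In/B. Sertoli cell markers, of which 11 of 12 were in the table, summed to between 3197 and 4222 CPM in RA-sufficient PL, to between 78.2 and 379 CPM in In/B and to between 327 and 582 CPM in RA-deficient PL, and Fshr was at 0 counts in RA-deficient replicates 1 and 2. Leydig cell markers (7 genes, up to 49.1 CPM in sum), peritubular and stromal markers (9 genes, up to 219.5 CPM), macrophage and blood markers (9 genes, up to 16.3 CPM) and round spermatid markers (7 genes, up to 47.7 CPM) had their highest sums in RA-sufficient PL. Insl3, which defines Leydig cells, had at most 1 count in any library. In sorted bulk RNA, fewer cells of a type and less RNA per cell cannot be told apart. The part of these marker differences in any Plk result was not tested.

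Polo-like kinases are serine/threonine kinases with a kinase domain at one end and, at the other, the polo box, which docks the enzyme on its partners. PLK1 drives mitotic entry, centrosome maturation, spindle assembly and cytokinesis, and in spermatocytes it also acts at the exit from meiotic prophase. PLK4 is the kinase that starts centriole duplication. PLK2 and PLK3 are linked to stress responses and to the p53 pathway, and PLK5 has lost kinase activity and is best known from the nervous system.

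In the mm9 build used by the table, Plk1 lies at chr7:129302951-129313389 on the plus strand, Plk2 at chr13:111185252-111191052 (plus), Plk3 at chr4:116801260-116806568 (minus), Plk4 at chr3:40603941-40620805 (plus) and Plk5 at chr10:79819204-79828234 (plus). The counts are of reads on exons of these protein-coding genes, so transcript forms were not separated. The exons span 2203 bases for Plk1, 2802 for Plk2, 2531 for Plk3, 5863 for Plk4 and 2678 for Plk5. Plk4 has 8 annotated transcripts, the longest of 3479 bases, so its level per kb depends most on the length used. Only Plk3 shared exon bases with another gene: 84 bases with Tctex1d4 on the opposite strand, and that gene had at most 2 counts in any library.

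The stretches just before the start sites are shown for 3 members because their levels behaved differently from each other. These are Plk1, which fell in both PL groups, Plk4, called (like Plk2) in no comparison, and Plk5, which the family was chosen for. The sequences are from RefSeq on GRCm38.p6, a later build than the counts, where all 5 genes had an entry. Each runs 5′ to 3′ on the gene's own strand over the 100 bases before the start site, and capitals mark a CCAAT box, a motif read by the factor NF-Y. The last sequence covers bases 20 to 49 from the Plk1 start site, and its capitals mark a cell cycle genes homology region (CHR, TTTGAA), an element found in genes of the G2 and M phases.
Plk1 before the start site, chr7:122159335-122159434: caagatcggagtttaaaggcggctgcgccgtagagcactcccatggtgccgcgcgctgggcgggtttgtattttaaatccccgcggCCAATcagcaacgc
Plk4 before the start site, chr3:40799851-40799950: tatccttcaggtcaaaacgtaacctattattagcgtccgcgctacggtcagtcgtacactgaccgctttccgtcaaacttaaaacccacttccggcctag
Plk5 before the start site, chr10:80356359-80356458: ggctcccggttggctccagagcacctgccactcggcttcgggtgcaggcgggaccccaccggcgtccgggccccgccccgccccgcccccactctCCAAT
Plk1 after the start site, chr7:122159454-122159483: ccagcgccgcgTTTGAAttcggggaggagc

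Both strands were searched from 250 bases before to 50 bases after each start site. Plk1 held a CCAAT box from base -14 and a CHR from base 31, and Plk5 held a CCAAT box from base -5. CCAAT was present in 37.4% and TTTGAA in 17.9% of all 32851 promoters of this length. An E-box (CACGTG, 7.15% of promoters), an E2F site (2.26%), a single repeat unit of the p53 site (8.36%), RA receptor direct repeats with spacers of 5 bases (0.0974%) or 2 bases (0.268%) and the STRA8 motif CNCCTCAG (7.94%) had no match in any of the 5 windows, and Plk2, Plk3 and Plk4 matched none of the motifs. Each motif was searched as a fixed pattern without mismatches, so variant sites would be missed. At these shares, no match in 5 windows was the likely outcome, and no conclusion is drawn from it.

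**Figure D1:**
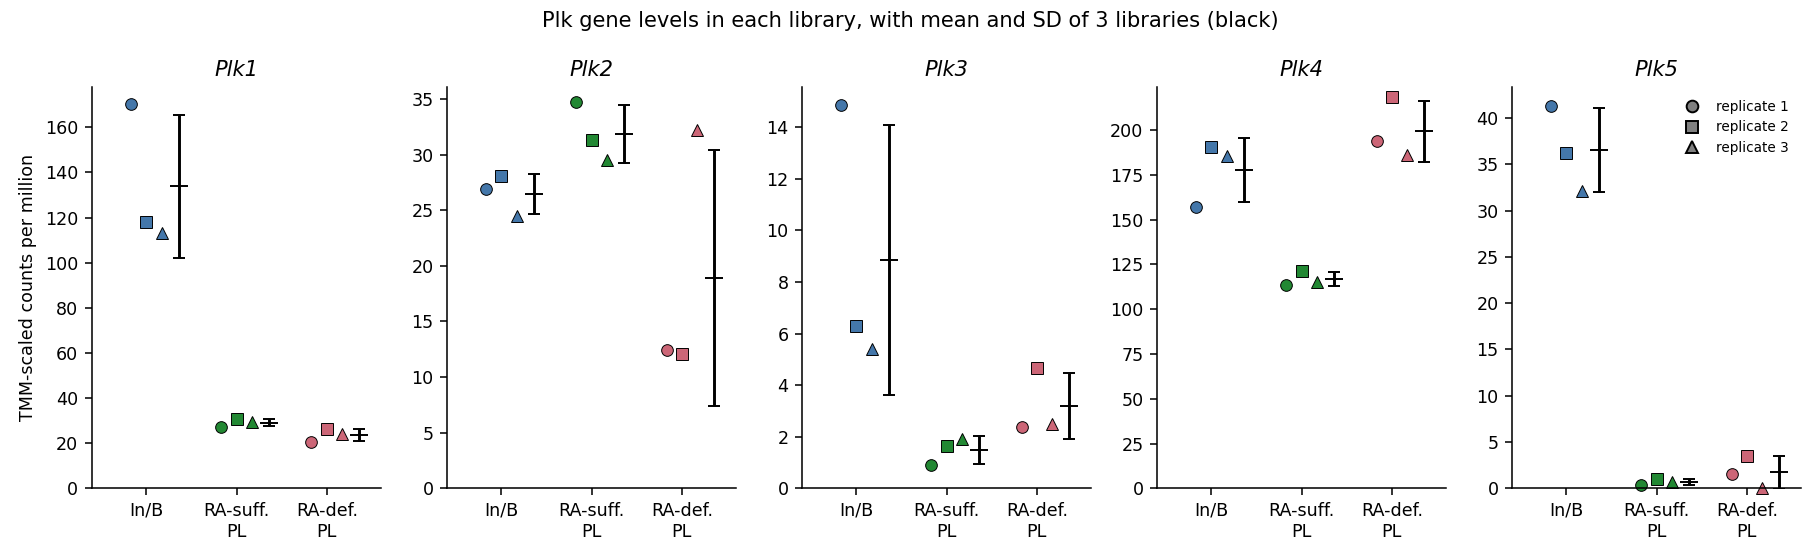
Level of each Plk gene in every library, in CPM scaled by the trimmed mean of M values (TMM), on a linear axis from 0 that differs between panels; symbols are the replicates of In/B, RA-sufficient PL and RA-deficient PL, and black marks are the mean and SD (n = 3). Plk1 and Plk5 stand far higher in In/B than in either PL group, Plk4 is lowest in RA-sufficient PL, and RA-deficient replicate 3 lies apart from replicates 1 and 2 for Plk2.

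Plk1, the mitotic kinase, fell in both PL groups. Its level was 170.3, 118 and 113 CPM in In/B replicates 1 to 3, 27.3, 30.6 and 29.3 CPM in RA-sufficient PL, and 20.6, 26.2 and 24.2 CPM in RA-deficient PL. The lowest In/B library stood well above the highest PL library, and the RA-deficient values lay just below the RA-sufficient ones without overlap. In edgeR's quasi-likelihood test, a gene was called where the log2 fold change was beyond 1 and the adjusted p below 0.05. Plk1 fell by 2.16 on the log2 scale in RA-sufficient PL (SE 0.18, edgeR adjusted p = 3.21e-05). In RA-deficient PL its log2 fold change was -2.37 (SE 0.21, edgeR adjusted p = 1.70e-04), or -2.38 without RA-deficient replicate 3. These are 4.60-fold and 5.66-fold higher mean levels in In/B, whose libraries serve both comparisons. Between the PL groups the log2 difference was -0.33 (SE 0.20, edgeR adjusted p = 0.273), which did not pass.

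Plk4, the centriole kinase, was higher in RA-deficient than in RA-sufficient PL, and was the one gene among Plk1 to Plk4 to pass the adjusted p there with all libraries. It measured 157, 191 and 186 CPM in In/B, 114, 121 and 115 CPM in RA-sufficient PL, and 194, 219 and 186 CPM in RA-deficient PL. All 3 RA-sufficient libraries lay below the other 6, and the In/B and RA-deficient ranges overlapped. RA-deficient PL was higher than RA-sufficient PL by 0.74 on the log2 scale (SE 0.12, edgeR adjusted p = 0.00561), a 1.71-fold difference of means, and by 0.80 without RA-deficient replicate 3. With scaling by library totals this difference was 0.56 (edgeR adjusted p = 0.0164). RA-sufficient PL was lower than In/B, with a log2 fold change of -0.56 (SE 0.12, edgeR adjusted p = 0.00257). Both differences passed the adjusted p and fell short of the fold of 2 that a call needs. Of all genes tested, 65.0% passed the adjusted p at any fold in the RA-sufficient comparison with In/B, and 23.6% did so between the PL groups. RA-deficient PL and In/B differed by 0.30 (SE 0.13, edgeR adjusted p = 0.106, where 36.7% of all genes passed), a value that was -0.02 when libraries were scaled by their totals alone. Without RA-deficient replicate 3 it was 0.35 (edgeR adjusted p = 0.0384). Leaving out RA-deficient replicate 1 or replicate 2 instead gave 0.29 (edgeR adjusted p = 0.197) or 0.19 (edgeR adjusted p = 0.340). Marker sums also differed between the PL groups. Sertoli cell markers were at 3197 to 4222 CPM in RA-sufficient and 327 to 582 CPM in RA-deficient PL. Germ cell markers were at 3058 to 4282 and 6011 to 6959 CPM in the same order. Differentiating spermatogonia markers were high in RA-deficient replicates 1 and 2 but not in replicate 3. The part of these markers in the Plk4 values was not tested.

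Plk2, which is linked to stress responses and to the G1 phase, passed the call in no comparison. It measured 26.9, 28.1 and 24.5 CPM in In/B, 34.7, 31.3 and 29.5 CPM in RA-sufficient PL, and 12.5, 12.1 and 32.2 CPM in RA-deficient PL. RA-deficient replicates 1 and 2 were the lowest of the 9 libraries, while replicate 3 lay inside the RA-sufficient range. The log2 difference between RA-deficient and RA-sufficient PL was -0.79 (SE 0.41, edgeR adjusted p = 0.198). Without RA-deficient replicate 3 it was -1.39 (SE 0.21, edgeR adjusted p = 0.00200) and passed the call, so this library decides it. Against In/B, RA-deficient PL differed by -0.36 (SE 0.39, edgeR adjusted p = 0.520), and by -0.97 without replicate 3 (edgeR adjusted p = 0.00480). RA-sufficient PL differed from In/B by 0.31 (SE 0.16, edgeR adjusted p = 0.121), with no overlap of the libraries.

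Cell type markers differed together with Plk2 among the PL libraries. RA-deficient replicate 3, where Plk2 was high, had 328 CPM of differentiating spermatogonia markers and 582 CPM of Sertoli cell markers. Replicates 1 and 2 had 1406 and 1373 CPM of the former and 327 and 336 CPM of the latter. Kit, the receptor that marks differentiating spermatogonia, was at 569, 528 and 20.7 CPM in RA-deficient replicates 1 to 3 and at no more than 41.0 CPM in RA-sufficient PL. All 11 measured Sertoli cell markers were called higher in RA-sufficient PL than in In/B, and all 11 lower in RA-deficient than in RA-sufficient PL. In In/B, where Plk2 stood at 24.5 to 28.1 CPM, the spermatogonia markers were at 1297 to 1700 CPM and the Sertoli cell markers at 78.2 to 379 CPM. The part of either list in the Plk2 values was not tested.

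**Figure D2:**
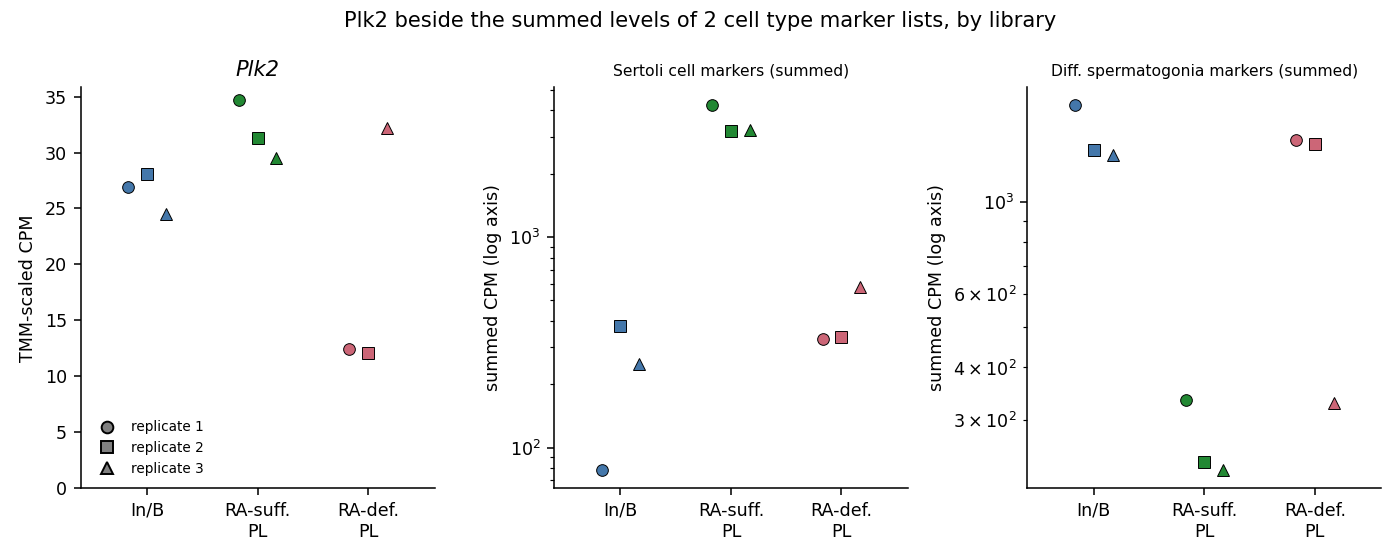
Plk2 in CPM on a linear axis (left) beside the summed CPM of 11 Sertoli cell markers (middle) and 6 differentiating spermatogonia markers (right) on log axes; each symbol is 1 library. RA-deficient replicate 3 has 32.2 CPM of Plk2 and 328 CPM of spermatogonia markers, against 12.5 and 12.1 CPM of Plk2 and 1406 and 1373 CPM of these markers in replicates 1 and 2.

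Plk3, a stress-response kinase, had the lowest level per kb of exon of the 5 genes in In/B and fell in RA-sufficient PL. Its counts were 266, 171 and 96 in In/B, 12, 27 and 44 in RA-sufficient PL, and 59, 116 and 56 in RA-deficient PL. On the CPM scale these were 14.8, 6.30 and 5.39 in In/B, 0.884, 1.63 and 1.93 in RA-sufficient PL, and 2.39, 4.65 and 2.50 in RA-deficient PL. The 3 groups did not overlap, with RA-deficient PL in between, and In/B replicate 1 was more than 2 times as high as either other In/B library. Plk3 fell by 2.51 on the log2 scale in RA-sufficient PL (SE 0.50, edgeR adjusted p = 0.00225). The difference of RA-deficient PL from In/B was -1.34 (SE 0.54, edgeR adjusted p = 0.0883), -1.19 without RA-deficient replicate 3 and -1.76 without RA-deficient replicate 2. It was -0.75 (edgeR adjusted p = 0.353) without In/B replicate 1, and the call passed with DESeq2 or with scaling by library totals. Between the PL groups the log2 difference was 1.08 (SE 0.61, edgeR adjusted p = 0.237), 1.22 without RA-deficient replicate 3 and 0.70 without RA-deficient replicate 2.

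Plk5 had 739, 983 and 572 counts in In/B, 5, 17 and 16 counts in RA-sufficient PL, and 38, 88 and 1 counts in RA-deficient PL. These were 41.3, 36.2 and 32.1 CPM in In/B, 0.368, 1.02 and 0.700 CPM in RA-sufficient PL, and 1.54, 3.53 and 0.0446 CPM in RA-deficient PL. All In/B libraries lay above all PL libraries, which is the difference the gene was chosen for. The mean was 52.4-fold higher in In/B than in RA-sufficient PL and 21.4-fold higher than in RA-deficient PL, or log2 fold changes of -5.63 and -4.27. Relative to its mean, the level spread most in RA-deficient PL, with a coefficient of variation of 103%, against 47.0% in RA-sufficient PL and 12.5% in In/B. Replicate 3, at 1 count, was the lowest of all 9, with an exact 95% Poisson interval of 0.00113 to 0.248 CPM that covers counting error only, while replicates 1 and 2 exceeded every RA-sufficient library. The log2 difference between the PL groups was 1.26 with all libraries, 1.83 without RA-deficient replicate 3 and 0.16 without RA-deficient replicate 2. Against In/B it was -3.71 without RA-deficient replicate 3 and -5.38 without RA-deficient replicate 2. Replicates 1 and 2 were also the PL libraries with the high differentiating spermatogonia markers given above, and the part of those markers was not tested.

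**Figure D3:**
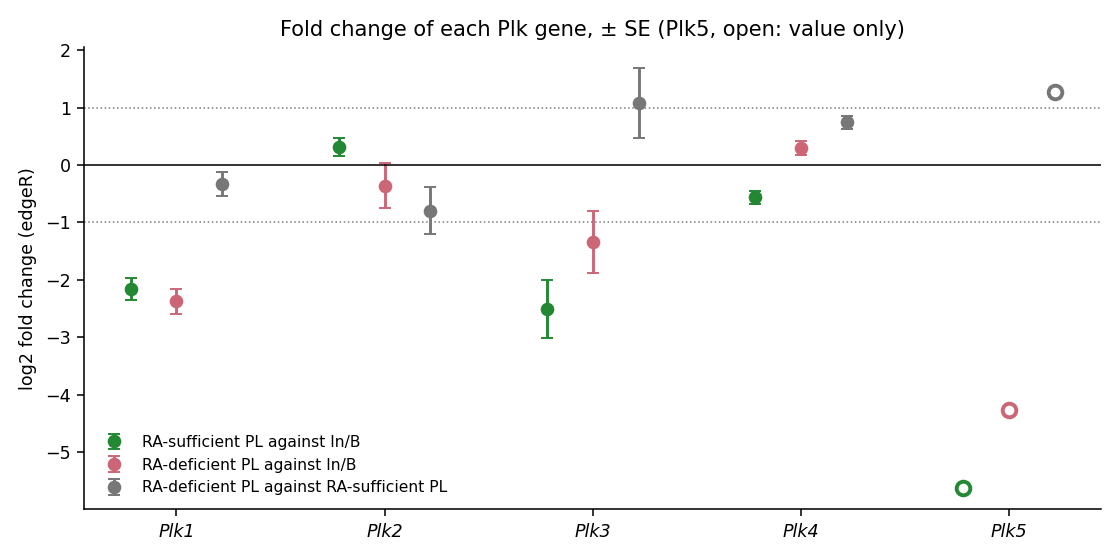
Log2 fold change of each Plk gene in the 3 comparisons, with its SE from edgeR for Plk1 to Plk4; open circles give Plk5, the gene chosen for its change, as values only. Dotted lines mark the fold of 2 that a call needs: Plk1 lies beyond it in both comparisons with In/B, Plk4 in none.

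Of the 4 members open to a test, 2 (Plk1 and Plk3) were called between RA-sufficient PL and In/B, both lower in PL. There, 45.4% of the 15001 genes tested were called and 19.3% were called lower, so a fall was common among all genes. In RA-deficient PL against In/B, 1 of 4 (Plk1) was called, beside 23.2% of 14877 genes called and 11.8% called lower. The split of those calls was 1693 higher and 1753 lower with TMM scaling, and 1123 higher and 2762 lower with scaling by library totals, which moved the median log2 fold change of all genes from 0.00 to -0.31. Between the PL groups none of the 4 was called with edgeR (15.5% of 15352 genes were called), 1 (Plk4) had an unadjusted p under 0.05, and DESeq2 also called none. The split over all genes was 687 higher and 1696 lower, or 426 and 2003 with scaling by library totals, where the median moved from -0.09 to -0.27. All 4 passed the filter on low counts in each comparison.

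The make-up of the family was compared per kb of exon, since longer genes collect more reads. In In/B the order was Plk1 (60.8 ± 14.4 CPM per kb, SD, n = 3), Plk4 (30.3 ± 3.08), Plk5 (13.6 ± 1.71), Plk2 (9.45 ± 0.651) and Plk3 (3.50 ± 2.06), and no neighbours overlapped. With coding length or the longest transcript in place of all exons the Plk1 and Plk4 ranges overlapped. In RA-sufficient PL the order was Plk4 (19.9 ± 0.668 CPM per kb), Plk1 (13.2 ± 0.750), Plk2 (11.4 ± 0.935), Plk3 (0.584 ± 0.212) and Plk5 (0.260 ± 0.122), where Plk1 and Plk2 nearly met and Plk3 and Plk5 overlapped. In RA-deficient PL it was Plk4 (34.0 ± 2.92 CPM per kb), Plk1 (10.7 ± 1.28), Plk2 (6.75 ± 4.11), Plk3 (1.26 ± 0.505) and Plk5 (0.637 ± 0.653), and the ranges of Plk1 and Plk2 and those of Plk3 and Plk5 overlapped. Per kb of all exons, Plk1 led in every In/B library and Plk4 led in all 6 PL libraries. With coding length or the longest transcript, Plk1 led In/B by its mean but not in every library.

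The sum of the 5 genes was 106 to 135 CPM per kb in In/B, 44.5 to 46.8 in RA-sufficient PL and 48.4 to 56.6 in RA-deficient PL. Among Plk1 to Plk4, which leaves out the gene chosen for its change, Plk1 held 57.9% ± 5.84 (SD, n = 3) of the sum in In/B, 29.3% ± 1.26 in RA-sufficient PL and 20.3% ± 1.02 in RA-deficient PL. Plk4 held 29.7% ± 6.31, 44.1% ± 0.517 and 64.7% ± 6.29 in the same order, and Plk2 held 9.16% ± 1.07, 25.3% ± 2.21 and 12.6% ± 7.14. The shares of Plk1 and of Plk4 did not overlap between any pair of groups. For each of these 6 differences the exact two-sided permutation test gave p = 0.1, the smallest p that 3 against 3 libraries allow, and 0.12 after Benjamini-Hochberg adjustment over the 12 share tests, so the design could not reach 0.05. 

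**Figure D4:**
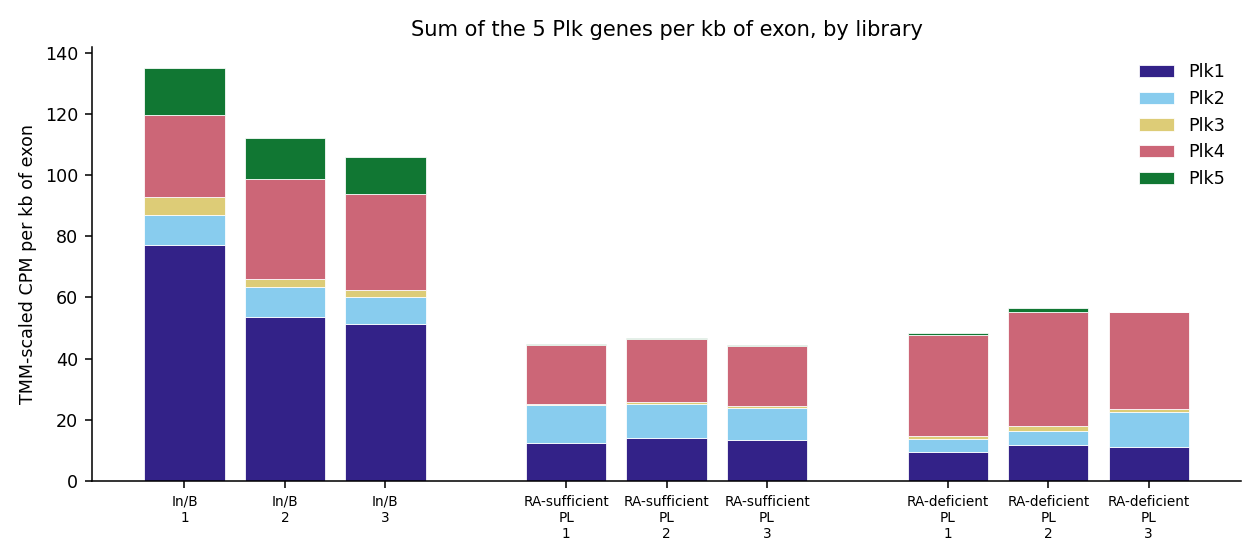
Stacked level of the 5 Plk genes in each library, in CPM per kb of exon, from 0. The total is 106 to 135 in In/B and 44.5 to 56.6 in the PL libraries, and the Plk1 segment is the largest in In/B while the Plk4 segment is the largest in every PL library.

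The genes around the kinases were followed in 8 lists with 69 genes in all, every one of which passed the filter. In RA-sufficient PL 29 fell and 9 rose against In/B, and their median log2 fold change was -0.78, beside 0.04 over all genes. In RA-deficient PL 20 fell and 11 rose, with a median of -0.42 beside 0.00 over all genes; without RA-deficient replicate 3 these were 21 and 9, and with scaling by library totals 28 and 7, with a median of -0.74 beside -0.31 over all genes. Between the PL groups 4 were lower and 2 higher, with a median of 0.20 beside -0.09. Without RA-deficient replicate 3 these were 7 and 4. The lists were drawn up with results of these data known, and the counts are descriptions to be read beside the background. Over all genes, 26.1% rose and 19.3% fell in RA-sufficient PL, 11.4% rose and 11.8% fell in RA-deficient PL, and 15.5% were called in either direction between the PL groups.

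Of 6 PLK1 activators, 3 fell in RA-sufficient PL and 3 in RA-deficient PL. Ccna2, the cyclin A that helps switch PLK1 on, stood at 322 ± 5.82 CPM (SD, n = 3) in In/B, 41.0 ± 8.72 in RA-sufficient PL and 57.7 ± 24.2 in RA-deficient PL, with log2 fold changes of -2.92 and -2.35. Cdk1, the kinase that primes PLK1 docking sites, fell with log2 fold changes of -1.41 and -2.32, and was lower in RA-deficient than in RA-sufficient PL, with a log2 fold change of -1.03 (edgeR adjusted p = 0.0372). Aurka, the Aurora kinase that phosphorylates PLK1, fell by 1.93 in RA-deficient PL and was lower there than in RA-sufficient PL, with a log2 fold change of -1.34 (edgeR adjusted p = 0.0121). Cep192, a centrosome scaffold that recruits Aurora A and PLK1, rose by 1.13 in RA-deficient PL, a call that was lost without RA-deficient replicate 3 (0.88) and with scaling by library totals (0.81).

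Among 11 docking partners of PLK1, 5 fell and 1 rose in RA-sufficient PL, and 4 fell and 1 rose in RA-deficient PL. Bub1, a spindle checkpoint kinase, rose in both, from 241 ± 10.1 CPM in In/B to 699 ± 191 and 699.9 ± 204 CPM, or by 1.58 and 1.67 on the log2 scale. Incenp, the scaffold of the chromosomal passenger complex, fell with log2 fold changes of -2.35 and -2.04. Sgo1, a protector of centromeric cohesion, fell with log2 fold changes of -2.46 in RA-sufficient and -1.44 in RA-deficient PL, and Cenpu, a kinetochore receptor of PLK1, with -1.13 and -1.60.

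Of 13 substrates at mitotic entry and exit, 7 fell in RA-sufficient PL, and 3 fell and 1 rose in RA-deficient PL. Ccnb1, the mitotic cyclin B1, averaged 60.0 CPM in In/B, 12.6 in RA-sufficient PL and 6.37 in RA-deficient PL, and fell with log2 fold changes of -2.21 and -3.11. Gtse1, a G2- and S-phase protein that PLK1 phosphorylates, fell with log2 fold changes of -2.43 and -2.20. Pkmyt1, which holds CDK1 inactive, was the only gene of the list called higher. It measured 20.1 ± 7.84 CPM in In/B, 17.6 ± 0.517 in RA-sufficient PL and 49.8 ± 8.99 in RA-deficient PL. In RA-deficient PL it was higher than in RA-sufficient PL by 1.46 on the log2 scale (edgeR adjusted p = 0.00454). Called or not, 5 of the 13 were higher and 8 lower in RA-deficient PL than in In/B. Against RA-sufficient PL, 11 were higher and 2 lower in RA-deficient PL.

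The list of 6 genes that act on the ubiquitin or phosphate marks of PLK1 gave 2 falls and 1 rise in each PL group. Cdc20, an activator of the anaphase-promoting complex, fell with log2 fold changes of -1.40 and -1.68 in RA-sufficient and RA-deficient PL. Fzr1, the other activator, fell by 1.24 in RA-sufficient PL, and Cdc27, a subunit of the complex, fell by 1.17 in RA-deficient PL. Usp16, a deubiquitinase that acts on PLK1, rose by 1.76 and 1.50.

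The list around PLK4 held genes of centriole duplication. In RA-sufficient PL 3 of 10 fell and 1 rose, and in RA-deficient PL none fell and 2 rose with TMM scaling. Scaling by library totals gave 5 lower and none higher in RA-deficient PL, and leaving out RA-deficient replicate 3 gave 1 lower and none higher. Stil, a direct activator of PLK4, fell by 1.35 and Cep152, which brings PLK4 to the centriole, by 1.49 in RA-sufficient PL. Cep63, the partner of CEP152, rose by 1.95 in RA-sufficient PL and by 1.13 in RA-deficient PL, where the call was lost, as for Cep192, without RA-deficient replicate 3 (0.83) and with scaling by library totals (0.81). Cep135, of the centriole cartwheel, was higher in RA-deficient than in RA-sufficient PL, with 70.3 ± 16.0 against 33.1 ± 1.65 CPM, or 1.05 on the log2 scale (edgeR adjusted p = 0.0148). That call was lost with scaling by library totals (0.87), which called no gene of the list higher there and 1 lower.

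In the list of 10 p53 and stress genes, 5 fell and 2 rose in RA-sufficient PL, and 4 fell and 3 rose in RA-deficient PL. Atr, the kinase that responds to stalled replication, rose from 277 ± 39.2 CPM to 1509.7 ± 311 and 1781 ± 522 CPM, or by 2.49 and 2.81 on the log2 scale. Sesn2, a stress-induced sestrin, rose by 1.96 and 1.62. Ccng1, a cyclin G induced by p53, fell with log2 fold changes of -3.39 and -3.78, and Chek2, a checkpoint kinase, with -2.36 and -1.58. Cdkn1a, the p53 target p21, fell by 1.86 in RA-deficient PL and was lower there than in RA-sufficient PL, with 7.81 ± 0.916 against 27.8 ± 15.5 CPM and a log2 fold change of -1.88 (edgeR adjusted p = 0.0207). The RA-sufficient libraries measured 45.7, 18.9 and 18.9 CPM of Cdkn1a, so the size of this difference rests largely on replicate 1. That library also had the highest sums of Sertoli cell markers (4222 CPM) and round spermatid markers (47.7 CPM), whose part was not tested.

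Of 7 PLK1 partners in meiosis, 2 rose and 1 fell in RA-sufficient PL, and 3 rose and none fell in RA-deficient PL, where scaling by library totals gave 1 lower. Sycp1, of the synaptonemal complex that PLK1 helps take apart, stood at 376 ± 94.7 CPM in In/B, 913 ± 147 in RA-sufficient PL and 978 ± 213 in RA-deficient PL, a rise of 1.33 and 1.51 on the log2 scale. Meikin, the meiotic kinetochore protein that binds PLK1, rose by 2.52 and 2.64, from 1.25 ± 0.701 to 7.06 ± 0.271 and 7.15 ± 2.69 CPM. Bub1b, a spindle checkpoint protein, fell by 1.30 in RA-sufficient PL. Sycp1 also belongs to the early meiosis markers used to check the labels.

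The 10 other mitotic kinases gave 4 falls and 3 rises in RA-sufficient PL, and 5 falls and 1 rise in RA-deficient PL. Aurkb, the catalytic subunit of the chromosomal passenger complex, fell with log2 fold changes of -3.34 and -4.03, from 111 ± 4.67 CPM to 10.6 ± 3.50 and 6.21 ± 2.65 CPM. Melk, a kinase of dividing cells, fell with log2 fold changes of -2.53 and -1.87. Haspin, which marks histone H3 at mitotic centromeres, rose by 1.82 in RA-sufficient PL, and was lower in RA-deficient PL (21.9 ± 11.8 CPM) than in RA-sufficient PL (91.8 ± 31.5 CPM), with a log2 fold change of -2.11 (edgeR adjusted p = 0.0134). The RA-sufficient libraries with high Haspin were also those with the high Sertoli cell and round spermatid markers, whose part was not tested.

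**Figure D5:**
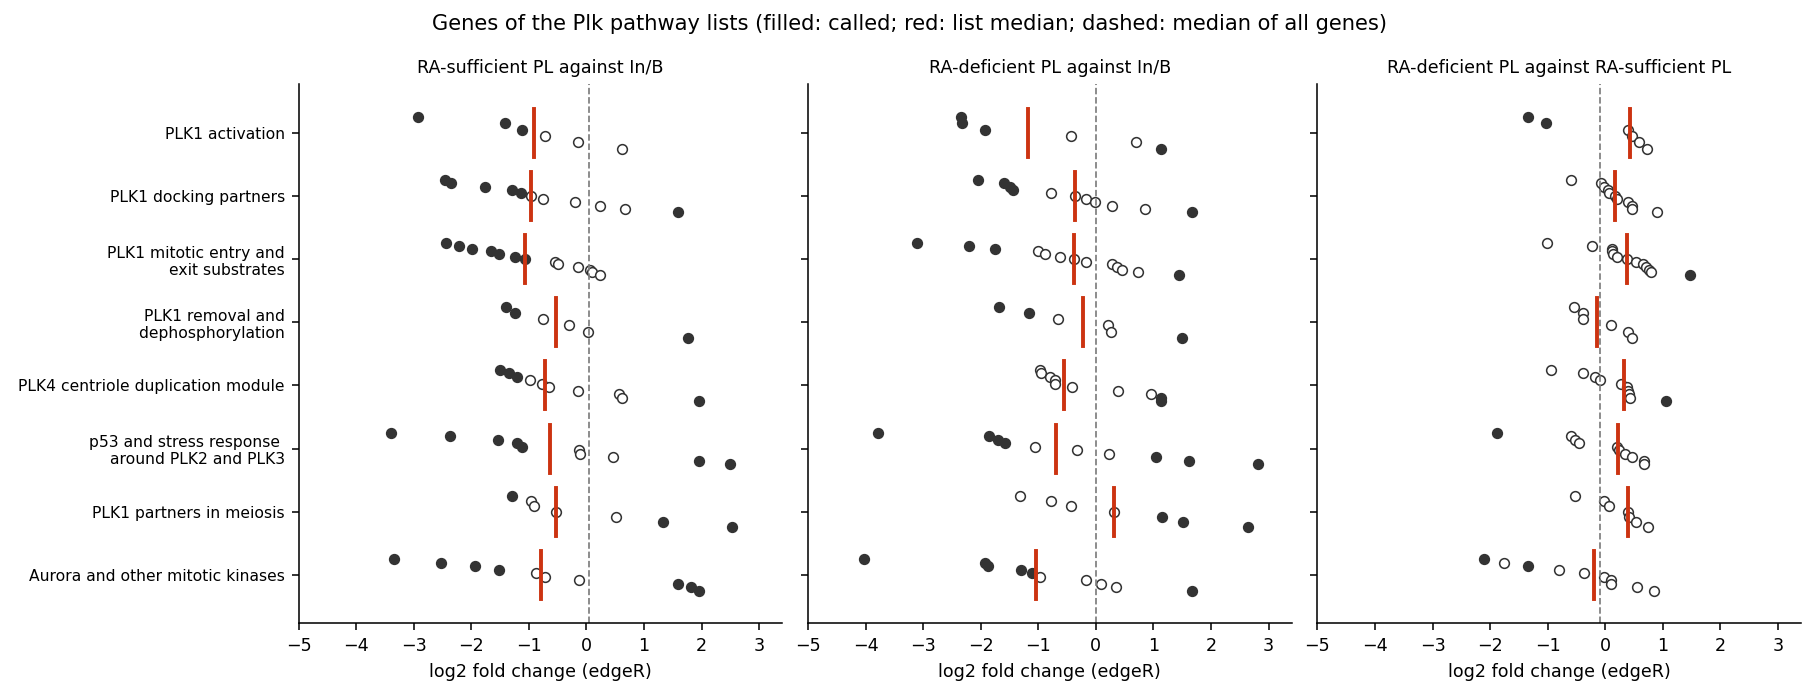
Log2 fold change of every gene in the 8 lists around the Plk genes, 1 panel for each comparison; filled circles were called, open circles were not, red bars are list medians and the dashed line is the median of all genes tested. Most lists sit left of the dashed line in both comparisons with In/B, and 6 genes in all were called between the PL groups.

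The genes most like each Plk gene were sought among the genes that reached an average of 10 CPM and had a count in each library, by Pearson's r of log2 CPM over the 9 libraries. These r values describe 9 libraries in 3 groups, they were the highest of 9615 or 9616, and they carry no p. Plk1 was most like Arpc3 (r = 0.994), Bcl10 (0.993) and Psmd2 (0.990), which all stood highest in In/B. Plk2 was most like Wdr60 (0.964), Wdr78 (0.962) and Mpi (0.955), and Plk3 was most like Pes1 (0.976), Fam53b (0.975) and Rpl14 (0.973). Plk4 was most like Fbxo5 (0.988), Srsf7 (0.987) and Casc3 (0.981). Fbxo5, the inhibitor EMI1 of the anaphase-promoting complex and itself a PLK1 substrate, averaged 67.0 CPM in In/B, 44.4 in RA-sufficient PL and 74.4 in RA-deficient PL. Plk5 was most like Pggt1b (0.993), Pold2 (0.993) and Arfgap1 (0.992), and Pold2, a subunit of DNA polymerase delta, averaged 144, 20.2 and 29.7 CPM in the same groups.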

How the data were processed

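Sorted germ cells were profiled by stranded poly(A) RNA-seq with 75-base single-end reads. The authors deposited raw read counts per gene for the 9 libraries; the submitters' processing notes and the study's methods name cutadapt 1.9, STAR 2.5.2b with mm9 and featureCounts, while the gene annotation and strand setting are not given in the sources used here. All columns of the table were used.

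Groups came from the sample titles. For each pair of groups, genes passing filterByExpr were fitted with the quasi-likelihood test of edgeR 4.0.16 (R 4.3.3, TMM scaling, no covariate), with Benjamini-Hochberg adjustment over all genes. Calls needed a change of more than 1 on the log2 scale in either direction together with an adjusted p under 0.05. CPM were TMM-scaled; log2 CPM used a prior count of 2. The fit was first tested on simulated counts with known changes. Shares of the family were compared with the exact permutation test over libraries, and motifs were searched in RefSeq promoters (GRCm38.p6). Alternatives were DESeq2 1.42.0, other scalings, filters, lengths and left-out libraries. The study's methods describe independent cell preparations, but the labels do not tie each library to a preparation, so p-values measure the spread between these samples, which may be technical. Libraries of a group differed by more than counting noise.

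Named pathway genes were, per list, comparison and direction, the up to 2 called genes of largest change with a mean of at least 5 CPM in a group; Fbxo5 and Pold2 were singled out after their values were seen. Sgo1 and Haspin were matched by older symbols, Sgo2a by a RefSeq synonym, and Rhox5 was not matched. Gene positions were from GENCODE M1 (mm9). The family, lists and tests were chosen with earlier results of these data known.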

Additional observations from a re-analysis of the deposited data

Results flagged for a closer look

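These 7 results are given again because the RA-deficient and RA-sufficient PL groups differed in the edgeR test of the difference itself. The list genes among them were called, whereas Plk4 passed the adjusted p but not the fold of 2. Other list genes passed the adjusted p short of that fold, among them Tpx2, Wee1 and Cep63, and are not given here. Plk4 was higher in RA-deficient PL by 0.74 on the log2 scale. Pkmyt1 and Cep135 were higher by 1.46 and 1.05. Aurka, Cdk1, Cdkn1a and Haspin had log2 fold changes of -1.34, -1.03, -1.88 and -2.11, with the limits given above for Cdkn1a and Haspin. No group had the 4 or more libraries that a check for single outlying samples needs.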

How the results depend on the processing

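Of 209 log2 fold changes of the Plk genes under the alternatives, 205 kept direction and call (for Plk5, which has no test, they moved by less than 1 SD of log2 CPM in the more variable of the compared groups), including all of Plk1. The SD of Plk5 was 2.45 in RA-deficient PL, so its shift from 1.26 to 0.16 between the PL groups without RA-deficient replicate 2 counted as kept. With scaling by library totals, Plk4 in RA-deficient PL against In/B went from 0.30 to -0.019, neither called, and Plk3 there was called at -1.67 (adjusted p = 0.0418); with DESeq2 it was called at -1.35 (adjusted p = 0.0465). Both settings thus call 2 of Plk1 to Plk4 there instead of 1. Leaving out 1 library at a time gave -1.39 to -0.53 for Plk2 between the PL groups, where 0 to 1 of the 4 genes was called; the call came without RA-deficient replicate 3. The cause was not tested. Over all genes, leaving out 1 library gave 1190 to 4484 calls between the PL groups against 2383: 4484 without RA-deficient replicate 3 and 1227, 1190 and 1283 without RA-sufficient replicates 1, 2 and 3. A test against a fold of 2 called 1207 genes in RA-deficient PL against In/B and 741 between the PL groups.

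Shares of the sum of Plk1 to Plk4 moved with gene length, as the construction of the alternative implies. With coding length, Plk1 held 48.4%, 22.3% and 14.2% in In/B, RA-sufficient and RA-deficient PL, and Plk4 held 40.2%, 54.9% and 73.9%; with the longest transcript these were 48.3%, 22.5% and 14.1%, and 41.4%, 57.1% and 75.4%. The order of the 5 mean levels was the same under each length and scaling. Plk1 nevertheless did not exceed Plk4 in every In/B library with coding length or the longest transcript. Of 144 alternative counts for the pathway lists, chosen after seeing the data, 17 moved by over 1.5 times.

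Replicate numbers are shared between groups, but same-numbered libraries did not deviate together (correlations from -0.25 to 0.12). With the replicate block the calls were 6373, 3208 and 1765 genes against 6803, 3446 and 2383, and no Plk call changed; the block value for Plk4 between the PL groups was 0.74 (adjusted p = 0.0158). Values of Plk3 and Plk5 in the PL groups rest on few counts.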
